A study of Mus musculus with 6 samples.

Results

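The Zfp genes of the mouse are the genes that carry the symbol Zfp and a number, a name given to proteins with zinc finger domains. Here they were all features of a 2-colour array whose platform gene symbol is Zfp followed only by digits, with Zfp36 left out. Zfp36 encodes the RNA-binding protein tristetraprolin. Apart from this gene the symbol alone set the choice, so other proteins that act on RNA are among the members. The choice gave 92 features of 85 genes, among 16281 features in all, and 7 genes had 2 features. RNA came from the mouse macrophage line RAW 264.7. Treated cells had received 100 ng/ml lipopolysaccharide (LPS, a membrane component of Gram-negative bacteria) together with 100 pM of its carrier LPS-binding protein for 8 h, and untreated cells had been kept in culture for the same time. Each of 6 arrays held both kinds of RNA, in 3 numbered sets. Within a set the treated RNA was labelled with Cy5 on 1 array and with Cy3 on the other, and these are called the Cy5 arrays and the Cy3 arrays below. All RNA came from this 1 line, and a ratio carries no level, so neither the identity of the cells nor the abundance of a transcript could be checked, and a change in every cell cannot be told apart from a larger change in some cells.

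Most Zfp proteins are Krüppel-type zinc finger proteins, in which a row of small zinc-holding loops reads DNA sequence. Many of them also carry a KRAB box, which binds TRIM28. TRIM28 in turn brings the histone methyltransferase SETDB1, heterochromatin proteins and deacetylases to the bound site, and the best known targets of this silencing are transposable elements. KRAB zinc finger genes lie in clusters of close relatives that arose by duplication, and the targets of many are unknown. A smaller number of Zfp proteins act on RNA, ribosomes or the cytoskeleton instead.

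The values were log2 ratios, turned so that positive means higher in treated cells. Cy5 was taken as the numerator because the labels name Cy3 as control and Cy5 as test, so every direction below is a likely one and would turn under the opposite reading. A value of exactly 0 was taken as not measured. The 2 arrays of a set were averaged, and the 3 set means were tested against 0 with limma, with Benjamini-Hochberg adjustment over all 14343 features tested and a threshold of 0.05. Of the 92 Zfp features, 83 had a value on all 6 arrays, 8 had 1 to 5 zeros, and 1, the second feature of Zfp101, was 0 throughout. Of these, 90 could be tested, 83 on 3 sets and 7 on 2. Zfp773 could not, because only the 2 arrays of set 2 measured it, at 0.38 on the Cy5 array and -0.93 on the Cy3 array. Nothing in the labels states that each set was its own culture. The p-values therefore rest only on the spread between sets, which may be technical. Limma also draws the spread of each feature toward a value shared by all features tested. A p-value thus does not follow from the SD printed beside it alone.

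Promoter sequences are shown first for the 2 largest rises and the 2 largest falls. They are RefSeq sequences of build GRCm38.p6, 300 bases each, from 250 bases before to 50 bases after a gene's start, on the strand of the gene. Capitals mark each CG pair. Zfp423 lies at chr8:87959546-87959845 on the minus strand, Zfp275 at chrX:73342370-73342669 on the plus strand, Zfp101 at chr17:33394588-33394887 on the minus strand and Zfp958 at chr8:4612920-4613219 on the plus strand. Where a gene had several promoters (2 for Zfp423 and 3 for Zfp958) the first in the table is shown.
Zfp423: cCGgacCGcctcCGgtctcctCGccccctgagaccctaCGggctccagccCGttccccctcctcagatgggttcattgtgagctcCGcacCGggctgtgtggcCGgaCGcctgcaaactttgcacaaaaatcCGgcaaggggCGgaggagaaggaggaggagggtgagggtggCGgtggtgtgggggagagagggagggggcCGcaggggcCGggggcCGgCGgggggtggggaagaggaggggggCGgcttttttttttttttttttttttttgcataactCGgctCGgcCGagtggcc
Zfp275: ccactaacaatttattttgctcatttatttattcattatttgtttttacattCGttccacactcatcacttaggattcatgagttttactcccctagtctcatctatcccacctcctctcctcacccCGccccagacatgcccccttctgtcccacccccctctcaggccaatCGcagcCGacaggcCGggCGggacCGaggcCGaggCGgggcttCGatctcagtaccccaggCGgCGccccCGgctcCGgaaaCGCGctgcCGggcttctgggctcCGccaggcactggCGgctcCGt
Zfp101: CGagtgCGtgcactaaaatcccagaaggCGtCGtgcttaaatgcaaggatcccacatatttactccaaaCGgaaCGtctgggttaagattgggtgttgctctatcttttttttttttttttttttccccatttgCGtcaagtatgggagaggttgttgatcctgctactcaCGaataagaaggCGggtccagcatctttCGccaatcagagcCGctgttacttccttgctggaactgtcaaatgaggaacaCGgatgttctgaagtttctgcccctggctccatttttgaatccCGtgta
Zfp958: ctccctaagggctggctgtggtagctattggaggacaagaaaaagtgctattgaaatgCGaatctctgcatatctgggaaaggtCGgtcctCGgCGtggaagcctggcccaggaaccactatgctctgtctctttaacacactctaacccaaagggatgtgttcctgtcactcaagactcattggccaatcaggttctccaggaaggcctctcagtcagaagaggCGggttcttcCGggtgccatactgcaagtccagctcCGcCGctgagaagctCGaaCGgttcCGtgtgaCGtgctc
The windows shown held 21 CG pairs for Zfp423, 20 for Zfp275, 13 for Zfp101 and 12 for Zfp958. The other promoter of Zfp423 held 7, so the order of the 4 genes depends on which window is read. The wider comparison over all members is given with the motif counts further on.

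The comparison asked which Zfp transcripts responded to 8 h of LPS. Falls outnumbered rises. Of the 90 Zfp features tested, 13 features of 12 genes rose, 24 features of 23 genes fell, and 53 did not pass. Over all features tested 32.7% passed, 17.1% higher and 15.6% lower. Of the Zfp features 41.1% passed, 14.4% higher and 26.7% lower. Among calls, 64.9% of the Zfp features were lower, beside 47.8% of all features. Without set 3 the Zfp counts were 9 higher and 11 lower, while leaving out set 1 gave 14 and 20 and leaving out set 2 gave 13 and 23. The Cy5 arrays alone gave 7 higher and 21 lower, and the Cy3 arrays alone gave 10 and 13. The larger share of Zfp calls did not hold in each of these settings. Without set 3, 23.3% of Zfp features passed, beside 22.0% of all features, and on the Cy5 arrays alone 31.1% did, beside 31.7%. On the Cy3 arrays alone 25.6% passed, beside 22.0%.

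**Figure D1:**
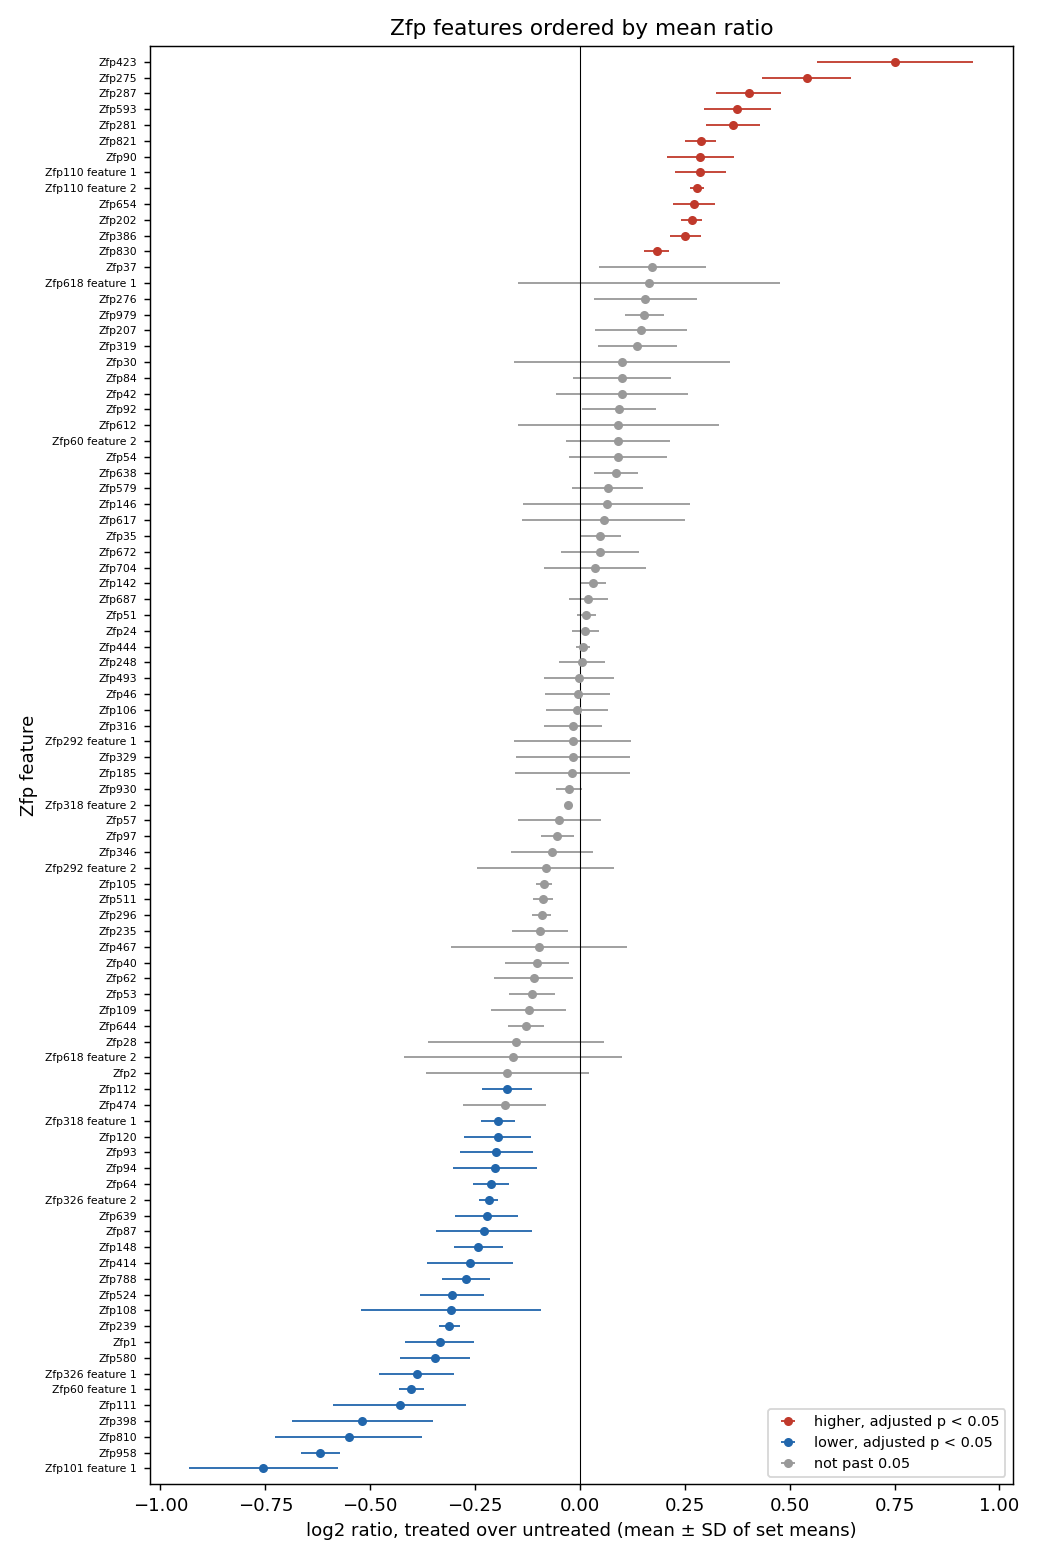
Mean log2 ratio (treated over untreated) of the 90 tested Zfp features, ordered by size. Points are means and bars SD of the 2 or 3 set means. The 13 features that rose reach 0.75 and the 24 that fell reach -0.75, and no feature lies beyond a log2 ratio of 1.

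Large changes were absent among the Zfp features, and small ones were usual. The median size of the mean log2 ratio was 0.15 over the 90 Zfp features, and 0.12 over all features tested. None of the 90 changed by more than 2-fold, where 3.57% of all features did, and 3 passed 1.5-fold, where 8.71% of all features did. These 3 were Zfp423, Zfp101 and Zfp958. The median of the Zfp features was -0.018, beside -0.0058 for all features. The 53 features that did not pass had means from -0.18 to 0.17, and 5 of them had an unadjusted p under 0.05.

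Zfp423, a cofactor of EBF and SMAD factors that commits cells to the fat lineage, had the largest rise. Its log2 ratios in sets 1, 2 and 3 were 0.89, 0.69 and 0.86 on the Cy5 arrays, and 0.86, 0.38 and 0.82 on the Cy3 arrays. All 6 values were above 0, and the Cy3 array of set 2 was the lowest. The mean was 0.75 ± 0.19 (SD, n = 3 sets), or 1.68-fold (limma's adjusted p = 0.000764). Zfp275, an X-linked gene, had 0.64, 0.59 and 0.39 on the Cy5 arrays and 0.65, 0.51 and 0.47 on the Cy3 arrays. Its values in the 2 dye orientations overlapped, and its mean was 0.54 ± 0.11, or 1.45-fold (limma's adjusted p = 0.000916). Zfp287 had 0.31, 0.20 and 0.31 on the Cy5 arrays and 0.62, 0.44 and 0.54 on the Cy3 arrays. Its 3 values on the Cy3 arrays were all above the other 3, around a mean of 0.40 ± 0.08 (limma's adjusted p = 0.00207).

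Zfp593 rose by 0.38 ± 0.08 on the log2 scale (limma's adjusted p = 0.00281). Its yeast counterpart Bud20 helps export the large ribosomal subunit. It had 0.22, 0.22 and 0.41 on the Cy5 arrays and 0.43, 0.45 and 0.52 on the Cy3 arrays, all above 0. Zfp281, a factor that binds GC-rich promoters and is known for its part in pluripotency, rose by 0.36 ± 0.07. It had 0.25, 0.28 and 0.11 on the Cy5 arrays against 0.55, 0.52 and 0.47 on the Cy3 arrays, so that its 2 orientations did not overlap, and the Cy5 arrays alone gave an adjusted p of 0.0628.

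The other rises lay between 0.18 and 0.29 on the log2 scale. Both features of Zfp110 rose, by 0.29 ± 0.06 and 0.28 ± 0.02. Its product, NRIF, binds the neurotrophin receptor p75. Zfp821 and Zfp90 each rose by 0.29, and Zfp386 rose by 0.25. Zfp202 rose by 0.27 ± 0.02. Its human counterpart represses genes of lipid transport. Zfp830, needed for the survival of the early embryo in mice, rose by 0.18 ± 0.03 and had the largest adjusted p among the rises (limma, 0.0294). Zfp654 rose by 0.27 ± 0.05, but its values were 0.43, 0.69 and 0.44 on the Cy3 arrays, against 0.043, -0.028 and 0.056 on the Cy5 arrays. Without set 3, the first feature of Zfp110, Zfp202, Zfp386 and Zfp830 no longer passed, and Zfp830 also did not without set 1. On the Cy5 arrays alone both features of Zfp110, Zfp202, Zfp386 and Zfp654 no longer passed. On the Cy3 arrays alone Zfp821, Zfp90 and Zfp830 did not. The second feature of Zfp110 had 0.10, 0.081 and 0.19 on the Cy5 arrays against 0.41, 0.50 and 0.38 on the Cy3 arrays.

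**Figure D2:**
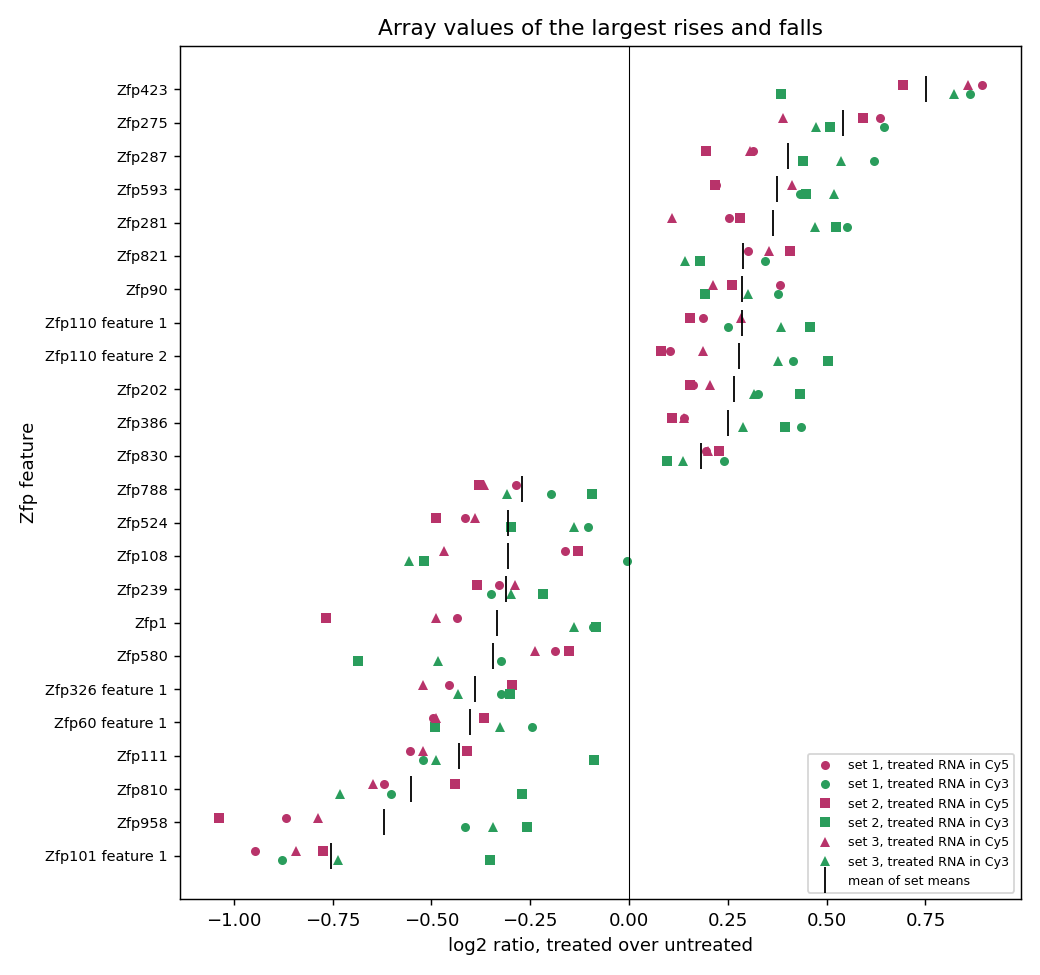
Log2 ratios (treated over untreated) on each of the 6 arrays for the 12 largest rises and 12 largest falls among Zfp features with the same sign on all arrays. Symbols give the set, colours the dye of the treated RNA, and black bars the mean of the set means. All points of a feature lie on 1 side of 0 because the choice required it. The Cy3 array of set 2 stands nearer to 0 in Zfp423, Zfp101 and Zfp111.

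The largest fall was in Zfp101, a zinc finger gene of chromosome 17. The feature that was measured had -0.95, -0.78 and -0.84 on the Cy5 arrays and -0.88, -0.35 and -0.74 on the Cy3 arrays. As with Zfp423, the Cy3 array of set 2 was closest to 0. The feature fell by 0.75 ± 0.18 on the log2 scale, a 1.69-fold difference (limma's adjusted p = 0.000661). Zfp958 had -0.87, -1.04 and -0.79 on the Cy5 arrays against -0.42, -0.26 and -0.34 on the Cy3 arrays. Its 2 orientations did not overlap, while its set means agreed closely, at -0.62 ± 0.05, the smallest adjusted p of any Zfp feature (limma, 0.000257). Zfp810 had -0.62, -0.44 and -0.65 on the Cy5 arrays and -0.60, -0.27 and -0.73 on the Cy3 arrays. It fell by 0.55 ± 0.17 (limma's adjusted p = 0.00227), and again set 2 was nearest to 0 in both orientations.

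Zfp398, whose human counterpart ZER6 binds the estrogen receptor, fell by 0.52 ± 0.17 (limma's adjusted p = 0.00264), with 5 of 6 arrays lower and 1 at 0.04. Zfp239, also called MOK2, binds both DNA and RNA. It had -0.33, -0.38 and -0.29 on the Cy5 arrays and -0.35, -0.22 and -0.30 on the Cy3 arrays. This was among the tightest of the falls, at -0.31 ± 0.02 (limma's adjusted p = 0.00363). Zfp1, among the first Krüppel-like genes found in the mouse, fell by 0.33 ± 0.08, with -0.44, -0.77 and -0.49 on the Cy5 arrays and -0.092, -0.083 and -0.14 on the Cy3 arrays. The Cy3 arrays alone gave an adjusted p of 0.263. Zfp580 fell by 0.34 ± 0.08 and Zfp524, whose human counterpart binds telomeric repeats, by 0.31 ± 0.08. Zfp788 fell by 0.27 ± 0.06, and no longer passed without set 3.

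Of 9 calls that held under all 12 alternatives of processing, 4 were rises (Zfp423, Zfp275, Zfp287 and Zfp593) and 5 were falls (Zfp101, Zfp958, Zfp810, Zfp239 and the first feature of Zfp326). Of the 37 calls, 20 held whichever single set was left out. The 17 that did not were all lost without set 3. Of these, 7 were also lost without set 1, and Zfp93 also without set 2. On the Cy5 arrays alone 15 of the 37 no longer passed, and on the Cy3 arrays alone 16, with no change of direction in either.

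Of 10 symbols listed for proteins that act on RNA or ribosomes, 6 were among the Zfp genes, with 7 features. Of these 1 rose (14.3%, beside 17.1% of all features) and 2 fell (28.6%, beside 15.6%). The list was chosen with earlier results of these data known, so these shares do not describe such proteins as a class. Zfp593 was the member that rose. Both features of Zfp326, whose human counterpart belongs to the DBIRD complex that couples RNA polymerase II elongation to splicing, fell. The first had -0.46, -0.30 and -0.52 on the Cy5 arrays and -0.32, -0.30 and -0.43 on the Cy3 arrays, a mean of -0.39 ± 0.09 (limma's adjusted p = 0.00278). The second had -0.41, -0.33 and -0.40 on the Cy5 arrays against -0.040, -0.051 and -0.071 on the Cy3 arrays, a mean of -0.22 ± 0.02 (limma's adjusted p = 0.0149), and did not pass without set 3 (adjusted p = 0.124). The features agreed in direction and differed in size on the Cy3 arrays. The other 4 features did not pass. Zfp207, a spindle assembly factor, had a mean of 0.15 ± 0.11 and passed without set 1 (limma's adjusted p = 0.0444). Zfp638, which silences unintegrated retroviral DNA, had 0.086 ± 0.052 and was higher on 6 of 6 arrays. Zfp106 had -0.0073 ± 0.073, and Zfp346, which binds double-stranded RNA, had -0.066 ± 0.098.

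Of 12 symbols listed for transcription factors with a known role and no KRAB box, 5 were among the Zfp genes, with 6 features. Of these Zfp423 and Zfp281 rose and Zfp64 and Zfp148 fell, so that 66.7% passed, beside 32.7% of all features. The list is short and was chosen with earlier results of these data known. Its share therefore says nothing about such factors as a class. Zfp64, known in mouse macrophages as a coactivator of the NF-kappaB subunit p65 in Toll-like receptor responses, had -0.15, -0.09 and -0.14 on the Cy5 arrays and -0.38, -0.28 and -0.24 on the Cy3 arrays. All 6 were lower and the 2 orientations did not overlap. Its mean was -0.21 ± 0.04 (limma's adjusted p = 0.0182), and it did not pass without set 1 (0.0575) or without set 3 (adjusted p = 0.103). Zfp148, also called ZBP-89, binds GC-rich promoters as Zfp281 does. It had -0.23, -0.15 and -0.11 on the Cy5 arrays and -0.39, -0.26 and -0.31 on the Cy3 arrays, a mean of -0.24 ± 0.06 (limma's adjusted p = 0.0126, and 0.0675 without set 3). The 2 features of Zfp292 had means of -0.017 ± 0.14 and -0.082 ± 0.16 and did not pass.

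Genes with 2 features gave a check within the table. Of 7 such genes, Zfp110 and Zfp326 had both features past the threshold in the same direction, and Zfp292 and Zfp618 had none. On the Cy5 arrays alone neither feature of Zfp110 passed, and on the Cy3 arrays alone the second feature of Zfp326 did not. Zfp60 had 1 feature at -0.40 ± 0.03 (limma's adjusted p = 0.00132) and the other at 0.091 ± 0.12 (adjusted p = 0.323). The first was lower on 6 of 6 arrays, from -0.50 to -0.25, and the second was higher on 5 of 6, from -0.23 to 0.24, so their values did not overlap. Averaged over both features the gene had -0.16 (adjusted p = 0.0657). Zfp318, needed in mice for IgD expression on B cells, had 1 feature at -0.19 ± 0.04 (limma's adjusted p = 0.0248) and another at -0.029 ± 0.0043 (adjusted p = 0.684). The mean of both was -0.11 (adjusted p = 0.106). Probe sequences were not used here, and how far a feature also binds transcripts of close relatives was not tested.

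Gene order in RefSeq (GRCm38.p6) was used to see which members lie next to each other, joining Zfp genes with at most 5 other protein-coding genes between them. The longest run held 7 genes on chromosome 7, in the order Zfp112, Zfp235, Zfp111, Zfp109, Zfp108, Zfp93 and Zfp94. All 7 had means below 0, with a median of -0.20, and 5 of them fell, beside 15.6% of all features. Among all Zfp features 26.7% fell, and 39.1% of those on chromosome 7 did, a share that includes this run. The run was added after its values were seen. Zfp111 fell by 0.43 ± 0.16 on the log2 scale (limma's adjusted p = 0.00491), with values of -0.55, -0.41 and -0.52 on the Cy5 arrays and -0.52, -0.088 and -0.49 on the Cy3 arrays. Zfp108 fell by 0.31 ± 0.21, and its set means were the most spread of all falls. Zfp94 and Zfp93 each fell by 0.20 and Zfp112 by 0.17. Zfp109 and Zfp235 had -0.12 ± 0.09 and -0.096 ± 0.067 and did not pass. Whether the features of these genes bind each other's transcripts was not tested. Without set 3 the calls of Zfp108, Zfp94, Zfp93 and Zfp112 were lost while that of Zfp111 held. On the Cy3 arrays alone Zfp111 did not pass (limma's adjusted p = 0.0924), and neither did Zfp108, Zfp93 and Zfp94. Zfp112 was lower on 5 of 6 arrays, with 0.0023, -0.00049 and -0.099 on the Cy5 arrays. It did not pass on the Cy5 arrays alone (limma's adjusted p = 0.698). No call of this run held under every alternative of processing.

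**Figure D3:**
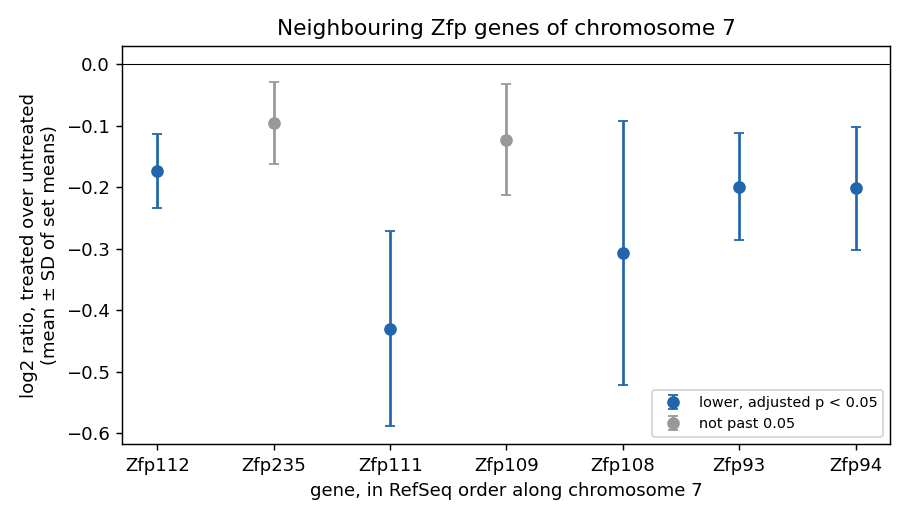
Mean log2 ratio (treated over untreated) ± SD of 3 set means for 7 neighbouring Zfp genes, in RefSeq order along chromosome 7. All 7 means lie below 0, from -0.43 in Zfp111 to -0.096 in Zfp235, and 5 pass the threshold.

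A second run of chromosome 7 held Zfp579, Zfp524 and Zfp580, of which the last 2 fell and Zfp579 had 0.066 ± 0.084. The run of Zfp54, Zfp51 and Zfp53 on chromosome 17 held no call, with means from -0.11 to 0.091. Over the whole of chromosome 7, 9 of 23 tested Zfp features fell and 2 rose, both of them features of Zfp110. On chromosome 8, 3 of 11 rose and 2 fell, and on chromosome 17, 3 of 10 fell and 0 rose. Over all features 17.1% rose and 15.6% fell, and among all Zfp features 14.4% and 26.7%. No difference between chromosomes was tested.

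KRAB zinc finger proteins silence through shared cofactors. Of 19 cofactor symbols listed, 14 were measured, with 16 features, of which 8 fell and 2 rose, beside 15.6% lower and 17.1% higher over all features. This list too was chosen with earlier results of these data known, so the count does not describe cofactors as a class. Trim28, the protein that binds the KRAB box, fell by 0.41 ± 0.01 (limma's adjusted p = 0.00115). The heterochromatin protein genes Cbx3 and Cbx5 fell by 0.47 ± 0.13 and 0.38 ± 0.10. Both features of Dnmt1, the maintenance DNA methyltransferase, fell, by 0.78 ± 0.09 and 0.76 ± 0.02, and Uhrf1, which guides it to newly copied DNA, fell by 0.67 ± 0.12. The chromatin remodellers Smarcad1 and Chd4 fell by 0.27 ± 0.07 and 0.22 ± 0.04, calls that were lost without set 3, and Chd4 had a mean of 0.026 on the Cy5 arrays alone. Hdac1, a deacetylase, rose by 0.30 ± 0.03 and Atf7ip, a partner of SETDB1, by 0.19 ± 0.06, and the call of Atf7ip was lost without set 2 or set 3. Setdb1 itself had -0.16 ± 0.06 (limma's adjusted p = 0.0626), with 6 of 6 arrays lower. Dnmt1 and Uhrf1 are also genes of S phase, and their part in the count as such was not tested.

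**Figure D4:**
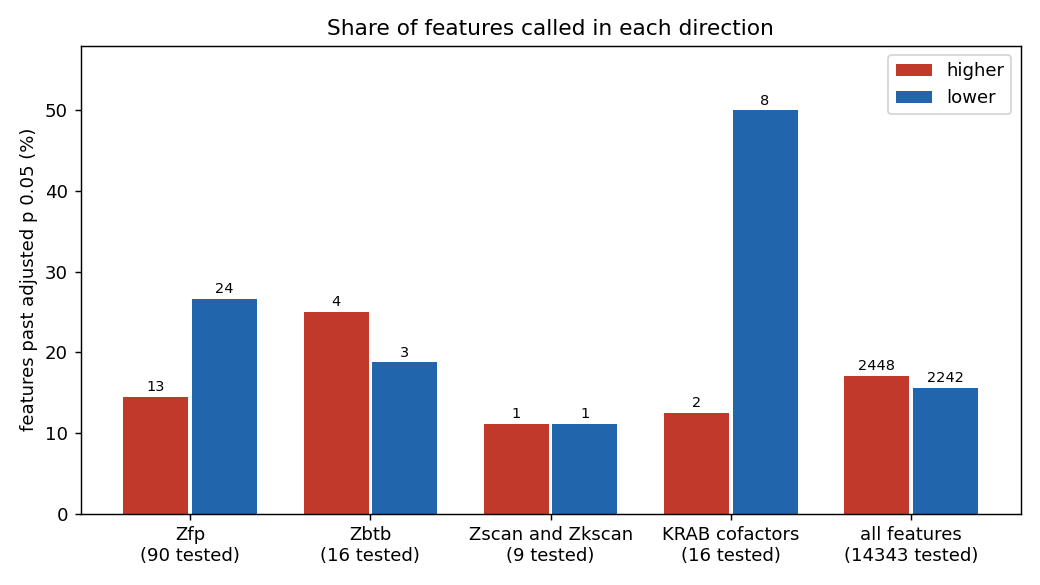
Share of tested features past limma's adjusted p of 0.05, higher or lower in treated cells, with the number of features above each bar. Zfp features were lower in 26.7% and higher in 14.4%, the KRAB cofactor list lower in 50%, and all features lower in 15.6% and higher in 17.1%. The cofactor list was chosen with earlier results of these data known.

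Other families of zinc finger genes had fewer features. Of 16 Zbtb features, which encode zinc finger proteins with a BTB domain, 4 rose and 3 fell, or 43.8% called. Of 9 Zscan and Zkscan features, which add a SCAN domain, 1 rose and 1 fell, or 22.2% called. Over all features 32.7% were called. No test of a difference between the families was made.

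Both dye orientations could be compared for each member. Of the 83 Zfp features measured on all 6 arrays, 13 were higher on all 6 (15.7%, beside 18.1% of all such features) and 21 were lower on all 6 (25.3%, beside 16.8%). Another 7 had opposite signs in the 2 orientations on every array, or 8.43%, beside 10.7% of all such features. In 5 of these 7 the ratio was below 0 on the Cy5 arrays. None of the 7 passed the threshold in the test of the set means. Limma's test of the dye term itself (the difference between the orientations divided by 2, a test added after the data had been seen) called 0 of 90 Zfp features, beside 0.00697% of all features. At an unadjusted p under 0.05 it gave 23 of the 90 Zfp features, beside 26.4% of all features.

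**Figure D5:**
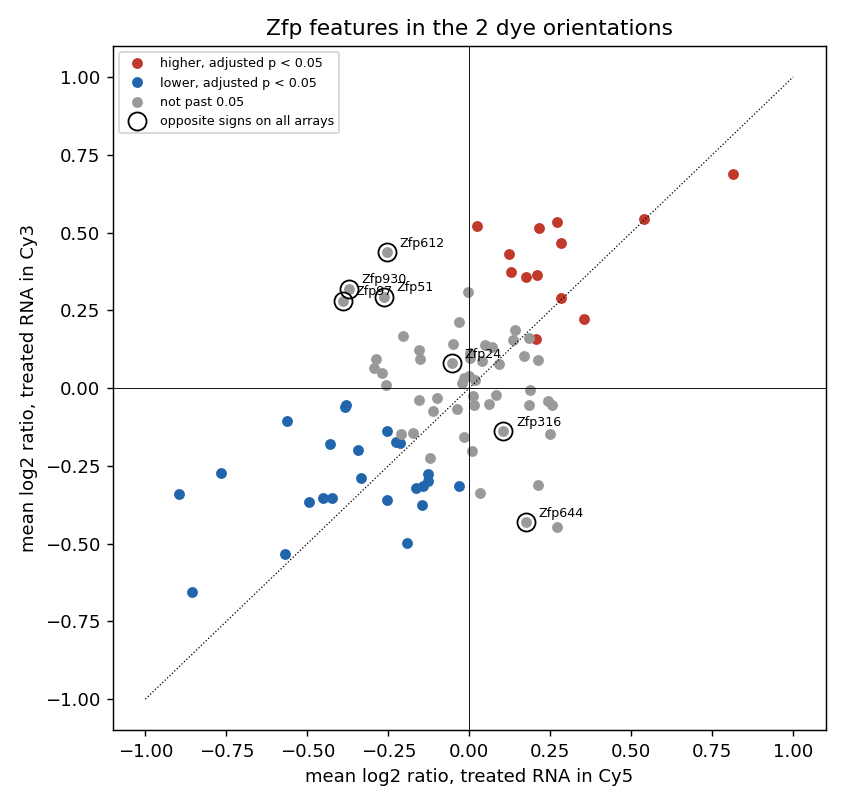
Mean log2 ratio (treated over untreated) of each tested Zfp feature on the 3 arrays that carried treated RNA in Cy5 (horizontal axis) and the 3 that carried it in Cy3 (vertical axis). The dotted line marks equal values, and circles mark the 7 features with opposite signs on all arrays. Features past the threshold lie in the lower left and upper right.

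Promoters were available for 69 of the 85 genes, 91 in all. They were searched on both strands for the interferon-stimulated response element core by its usual consensus, the NF-kappaB site likewise, the AP-1 site (TGANTCA), the E-box (CACGTG) and the CRE (TGACGTCA). The response element core was in 0 of the 91 windows, beside 3.44% of all 32851 windows of the table, and the CRE was in 0, beside 1.79%. The NF-kappaB consensus was in 11 of the 91 (12.1%, beside 8.46%). It was in 0 of 12 windows of genes that rose and in 3 of 27 of genes that fell (Zfp64, Zfp148 and Zfp108). Among windows of the remaining Zfp genes it was in 8 of 52. These groups are small, and no difference between them was tested. The AP-1 site was in 6 (6.59%, beside 7.81%) and the E-box in 4 (4.40%, beside 7.15%), 1 of them Zfp202, the only one of these among the genes that rose. No motif overlapped another in the window shown next. A match describes letters in these windows and not a site in use.

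The promoter of Zfp64 is shown because it is the macrophage coactivator among the genes that fell and holds an NF-kappaB match. It lies at chr2:168955538-168955837 on the minus strand of GRCm38.p6, again from 250 bases before to 50 after the start, with the match in capitals, beginning at base 276 of the window and read on the opposite strand.
Zfp64: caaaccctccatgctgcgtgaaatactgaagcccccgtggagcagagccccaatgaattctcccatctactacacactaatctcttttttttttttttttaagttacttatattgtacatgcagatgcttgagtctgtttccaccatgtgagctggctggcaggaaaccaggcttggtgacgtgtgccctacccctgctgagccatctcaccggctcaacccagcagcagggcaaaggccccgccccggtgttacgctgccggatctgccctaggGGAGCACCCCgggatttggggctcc
In base content the Zfp windows stood above the table, with a median of 16 CG pairs in 300 bases, beside 7 in all windows. Averaged over the promoters of each gene, the median was 17 CG pairs in 9 genes that rose, with a range of 14 to 35, and 13 in 21 genes that fell, with a range of 3 to 49. The 2 ranges overlap widely, and 39 genes that did not pass had a median of 16.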

How the data were processed

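RNA of treated and untreated RAW 264.7 cells was compared on 6 two-colour arrays. The authors deposited 1 log2 ratio per feature and array. The log base follows from the largest value, 6.64, which stood on 3 arrays and is the log2 of a round ratio. How the scans were corrected for background and dye is not given in the sources used here. Intensities were not used, so precision is limited by the number of arrays and no measure of signal over background can be given. Array medians without zeros lay between -0.021 and 0.0087 after turning. Arrays of the same dye orientation correlated over features with r of 0.705 to 0.899 and arrays of opposite orientation, as deposited, with r of -0.8 to -0.428, so the deposited ratios had not been turned to a common direction. Per array, 1328 to 2262 features were at exactly 0.

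Values from arrays whose Cy3 channel held treated RNA changed sign, zeros were set to missing, and a set mean needed both arrays of the set. Features with at least 2 set means were tested singly with lmFit and eBayes (limma 3.58.1, R 4.3.3, two-sided). Names came from the platform annotation, where 13738 features had 1 symbol, 52 had several and 2491 had none, and 85 of 85 Zfp genes matched RefSeq by gene identifier. The fit was tested on simulated data. Members and lists were chosen with earlier results of these data known. Genes named were the 12 largest rises and 12 largest falls past the threshold, all listed Zfp genes, and genes with 2 features of which at least 1 passed. For the rises and falls, at least 4 arrays had to be measured, with the same sign on every measured array. Zfp654, Zfp398 and the neighbours of chromosome 7 were added after their values were seen. A planned reading of KRAB boxes from protein sequence was not made. Of the marker genes listed, only ratios exist and none is used.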

Additional observations from a re-analysis of the deposited data

Results flagged for a closer look

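The 7 Zfp features listed here had 1 sign on all 3 arrays with treated RNA in Cy5 and the opposite sign on all 3 with treated RNA in Cy3, which 10.7% of all features measured on 6 arrays also had. The value is the dye term, the difference of the orientations divided by 2 on the log2 scale, positive where the ratio was higher with treated RNA in Cy5. It was -0.35 for Zfp930, -0.35 for Zfp612, -0.34 for Zfp97, -0.28 for Zfp51 and -0.067 for Zfp24. It was 0.30 for Zfp644 and 0.12 for Zfp316. In limma's test of the dye term their adjusted p ran from 0.128 to 0.245, so none passed. Zfp930, for example, had -0.34, -0.46 and -0.32 with treated RNA in Cy5 and 0.22, 0.45 and 0.29 with treated RNA in Cy3, and a mean over sets of -0.026. The cause was not tested.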

How the results depend on the processing

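All 37 calls among Zfp features kept their direction under the 12 alternatives, and 9 also kept their side of the threshold under each. With treated RNA in Cy3 alone 23 Zfp features passed and 13 fell, and with treated RNA in Cy5 alone 7 rose. Leaving out 1 set gave 20 to 36 Zfp calls, 9 to 14 higher and 11 to 23 lower, and 2956 to 4822 calls among all features, each lowest without set 3. The other alternatives (zeros kept, all 6 arrays measured, median centring, quantile normalization, 6 arrays with a dye term, features of a gene averaged) gave 33 to 39 Zfp calls. Values that changed sign belonged to features that did not pass, and to Chd4. Chd4 had 0.026 with treated RNA in Cy5 alone. Zfp106 had 0.011 with treated RNA in Cy5 alone and ran from -0.046 to 0.026 when 1 set was left out. The first feature of Zfp292 had 0.12 with treated RNA in Cy3 alone and ran from -0.091 to 0.048 when 1 set was left out. The second feature of Zfp60 had -0.0053 with treated RNA in Cy3 alone and -0.16 averaged with the first, and the second feature of Zfp318 had 0.095 with treated RNA in Cy3 alone. The causes were not tested.

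The 6 arrays with a dye term and the set number as a replicate block gave 38 Zfp calls, 13 higher and 25 lower, and the same counts without the block. Deviations of same-numbered arrays from the mean of their orientation, on the ratios as deposited, correlated with r of 0.256, 0.212 and 0.0999 in sets 1, 2 and 3, and once turned to treated over untreated with r of -0.256, -0.212 and -0.0999. As deposited, 5 of 6 arrays correlated best with their own number. Same-numbered arrays thus shared some deviation in the Cy5 over Cy3 direction, weakest in set 3. Once turned, this deviation was opposed within a set, and by this measure it would partly cancel in a set mean. The fit with the block, on turned values with a dye term, gave a consensus correlation of 0.098 between arrays of a set. That value is positive, so the 2 measures differ in sign. Neither this nor the source of the deviation was tested. Each set stayed 1 replicate because the labels do not say whether its arrays held the same extracts.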

Other observations

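Zfp30 and Zfp42, picked out after their values were seen, had the most opposed single arrays. Zfp42 is a marker of pluripotent cells, known as Rex1. Set 1 gave 0.81 for Zfp42 and 0.73 for Zfp30 with treated RNA in Cy5, and -0.78 and -0.80 with treated RNA in Cy3. Set 2 gave -0.27 and -0.37 with treated RNA in Cy5, and 0.27 and 0.25 with treated RNA in Cy3, in the same order of genes. These values cancelled to means of 0.015 in set 1 and 0.0027 in set 2 for Zfp42, and -0.035 and -0.060 for Zfp30. In set 3 both arrays were above 0, at 0.18 and 0.39 for Zfp42 and 0.40 and 0.39 for Zfp30. The means over sets, 0.10 ± 0.16 for Zfp42 and 0.10 ± 0.26 for Zfp30, therefore rest mostly on set 3, at 0.28 and 0.40. Zfp2 had 1 array of set 1 at 0.31 with treated RNA in Cy5, while its other 5 values lay between -0.35 and -0.19.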
